A study of Mus musculus with 32 samples.

Results

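Fibro-adipogenic progenitors (FAPs) sorted from mouse muscle 7 days after injury were compared between muscle that had received brown adipose tissue (BAT) and control muscle. The comparison took the FAP libraries of day 7, 8 of the 32 libraries in the series, 4 with BAT and 4 controls. Each of 4 mice gave a muscle of both kinds, and a code in the labels pairs the libraries of a mouse. BAT FAPs came from supraspinatus muscle, part of the rotator cuff, in which cardiotoxin, a venom peptide that kills muscle fibres, had been injected, and which then received interscapular BAT of 3-week-old donors. Control FAPs came from supraspinatus injured with cardiotoxin and given nothing else. Recipients are described as wild-type male C57BL/6J mice aged 12 weeks. Since injury was common to both groups and no sham graft or graft of another tissue was analysed here, the BAT itself and the act of grafting cannot be told apart. The other libraries hold FAPs of day 3 and satellite cells, the stem cells of muscle, of both days.

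FAPs are mesenchymal cells of the muscle interstitium. After injury they proliferate, secrete matrix and factors that act on satellite cells and immune cells, and can turn into adipocytes or into contractile, matrix-forming myofibroblasts. BAT is a fat depot that burns lipid for heat through the uncoupling protein Ucp1 and also secretes signalling proteins.

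Levels are CPM, counts scaled to a common library total after TMM scaling (an adjustment of library sizes), and are listed in the order of replicates 1 to 4, where BAT and control libraries with the same number come from the same mouse. Changes are log2 values, BAT minus control, fitted within mice by edgeR and given with their standard error (SE). Means carry the SD over 4 libraries. Both markers of the cell type were high. Pdgfra, a growth factor receptor by which FAPs are known, stood at 292 ± 33.3 CPM in BAT FAPs and 291 ± 11.4 CPM in control FAPs. Ly6a, the gene of the sorted surface protein Sca1, stood at 598 ± 132 CPM in BAT FAPs and 760.4 ± 282 CPM in control FAPs. The integrin Itga7, absent from the FAP gate, was at 3.74 to 16.3 CPM in BAT FAPs and 2.54 to 14.6 CPM in control FAPs. Ptprc, which encodes the leukocyte protein CD45, was at most 0.815 CPM, and Pecam1, which encodes the endothelial protein CD31, at most 14.2 CPM.

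The libraries held 22.01 M to 29.65 M counts with BAT and 22.06 M to 30.5 M in controls, and 3 counts, the limit that 0 counts allow, equal 0.0983 to 0.136 CPM depending on the library. This limit covers counting error only. Totals were lower with BAT in 4 of 4 mice, by 2.15 ± 2.57 M on average, but with 4 pairs the exact sign-flip permutation test cannot go below the p of 0.125 that it gave (two-sided). Mitochondrially encoded genes took 2.56% ± 0.221 of counts with BAT and 2.74% ± 0.513 in controls. Both libraries of replicate 3 held the female-specific transcript Xist (162 CPM with BAT, 176 CPM in the control) and no Y-linked transcript of the 4 examined, although the labels give male mice. In the other 6 libraries Xist was at most 0.119 CPM and the Y-linked Ddx3y at least 56.8 CPM. The control library of replicate 4, labelled as muscle given no BAT, held the brown fat transcript Ucp1 at 11.7 CPM. Ucp1 was at most 0.317 CPM in BAT FAPs and at most 0.358 CPM in the other control FAPs. The source of Ucp1 in the control library of replicate 4 was not tested. Whether the labels of that pair were exchanged was not tested, and an exchange would turn the sign of that mouse's differences. Without replicate 4 edgeR called 0 genes in either direction, as it did with all 4 mice. That count therefore cannot show what an exchange would change.

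No gene passed the test for a difference between BAT and control FAPs. Of 16021 genes tested, edgeR's quasi-likelihood test called 0 higher and 0 lower (0%) at a Benjamini-Hochberg adjusted p under 0.05, and the smallest adjusted p was 0.953. None of the genes named below is called, and those too low to be tested are given by their levels alone. At an unadjusted p under 0.05 there were 783 genes (4.89%), where 801 are expected if no gene differs, of which 418 were fitted higher (2.61%) and 365 lower (2.28%). The median log2 change over all genes was -0.00698 and the median size of a change was 0.13. Of all genes tested, 218 were fitted more than 1 log2 unit apart. The groups did not overlap for 45 genes fitted higher (0.281%) and 57 fitted lower (0.356%). All 4 mice had the higher level with BAT for 1044 genes (6.52%) and the lower level for 1066 (6.65%).

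Other tools gave other counts. DESeq2 with the same mouse block called 14 genes higher and 9 lower, 0.214% of the 10740 genes to which it gave an adjusted p, and limma voom called 1 lower (0.00624%), the small nuclear RNA Gm23849. The 23 DESeq2 calls are Arc, Snai1, Tagln, Rgs16, Sox11, Ncam1, Phldb2, Acta2, Fblim1, Gcnt2, Bag3, Hspb1, its pseudogene Hsp25-ps1 and Olfm2, all higher, and Myoc, Hba-a2, Hmcn2, Coch, Kera, Cpxm2, Tnxb, Tnmd and Gm50241, all lower. The genes below are therefore described by their values in each mouse.

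**Figure D1:**
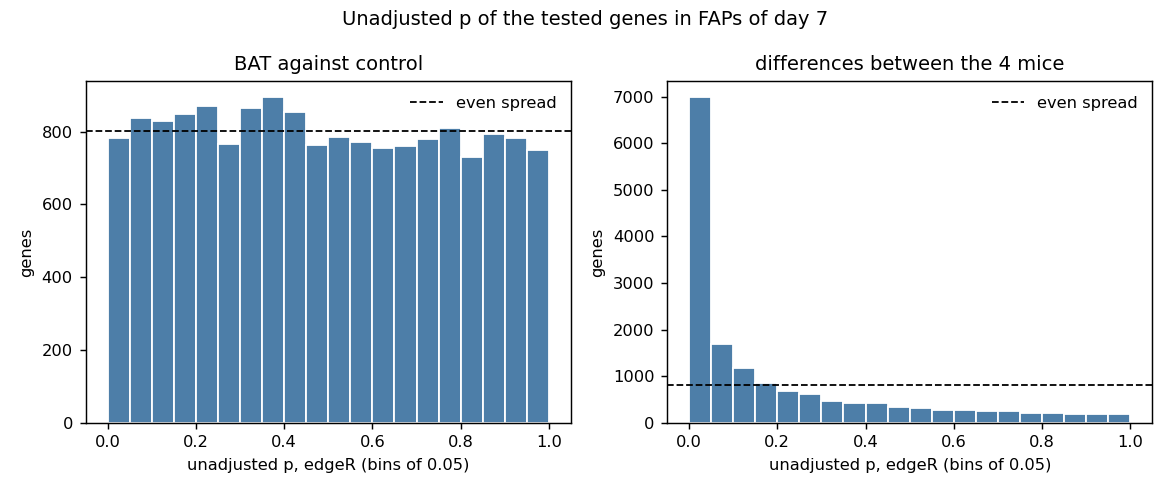
Histograms of the unadjusted edgeR p of the 16021 tested genes, in bins of 0.05 on the x axis with the number of genes on the y axis, for BAT against control (left) and for differences between the 4 mice (right). The dashed line is an even spread. The BAT test follows it, with 783 genes in the first bin, while the first bin of the test between mice stands far above it.

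The libraries differed far more by mouse than by graft. On the log2 scale the mouse accounted for a median of 73.5% of a gene's sum of squares over the 8 libraries, BAT for 3.68% and the remainder for 18.2%. These shares are not corrected for degrees of freedom, of which the mouse has more than BAT. Handling shared by both libraries of a mouse cannot be told apart from the mouse itself. A test between the 4 mice, added after the data had been seen, called 4531 of the 16021 genes (28.3%) in the same edgeR fit. Replicate 3, the mouse with Xist, stood farthest from the others: 1982 genes were more than 1 log2 unit from the mean of the other mice, against 1517 for replicate 2, 1096 for replicate 4 and 723 for replicate 1. Without replicate 3, edgeR called 2025 genes between mice, and without replicate 2 it called 2185. The histograms of unadjusted p show the 2 tests side by side.

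Arc, Phldb2, Rgs16, Snai1 and Tagln had the smallest p among genes fitted higher with BAT that had a mean of at least 2 CPM in either group. Arc (chr15:74669083-74672570, minus strand, mm10), an immediate-early gene known from synapses, had 169, 173, 201 and 87.3 CPM in BAT FAPs, against 104, 91.9, 107 and 69.7 CPM in control FAPs. Each mouse had more with BAT, and only replicate 4 of the BAT FAPs lay within the range of the controls, for a change of 0.71 ± 0.12 (DESeq2 adjusted p = 0.000161). Snai1 (chr2:167538195-167542814, plus strand), a repressor that drives epithelial cells towards a mesenchymal state, had 87.2, 176, 58.1 and 90.1 CPM in BAT FAPs, against 48.7, 104, 36.9 and 77.00 CPM in control FAPs. All 4 mice were higher with BAT although the groups overlapped, for a change of 0.62 ± 0.12 (DESeq2 adjusted p = 0.00454). Rgs16, which speeds the shut-off of G protein signals, averaged 155 ± 80.2 CPM in BAT FAPs and 103 ± 68.5 CPM in control FAPs, a change of 0.68 ± 0.12.

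Wnt5a (chr14:28504750-28527448, plus strand), a ligand of non-canonical Wnt signalling, had 34.8, 28.7, 36.6 and 43.9 CPM in BAT FAPs, against 28.2, 18.5, 28.7 and 26.2 CPM in control FAPs. It was the only one of the 10 genes listed as fitted higher whose groups did not overlap, with a change of 0.51 ± 0.11, a DESeq2 adjusted p of 0.0973 and a background of 0.281% of genes. The transcription factor Sox11 was fitted at 0.58 ± 0.11, the adhesion molecule Ncam1 at 0.57 ± 0.12 and Phldb2, a protein of the cell cortex, at 0.50 ± 0.09, each higher with BAT in 4 of 4 mice. Pakap (0.41 ± 0.09) carries 3 overlapping gene identifiers under that symbol and its share of reads is uncertain. Gm13698, with 0 to 5.22 CPM in BAT FAPs and 0 to 1.86 CPM in control FAPs, was higher in 3 of 4 mice and at 0 in both libraries of replicate 3.

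Myoc, Hmcn2, Coch, Pcsk6 and Hbb-bs had the smallest p among genes fitted lower that had a mean of at least 2 CPM in either group. Myoc (chr1:162639155-162649693, plus strand), the secreted glycoprotein myocilin, had 222, 265, 15.04 and 121 CPM in BAT FAPs, against 339.5, 568, 37.3 and 156 CPM in control FAPs. Every mouse had less with BAT, while the 4 mice spread over more than the difference, and the change was -0.84 ± 0.15 (DESeq2 adjusted p = 0.000161). Coch, the matrix protein cochlin, had 2.59, 8.15, 0.226 and 2.67 CPM in BAT FAPs, against 4.43, 17.1, 1.298 and 7.44 CPM in control FAPs, lower with BAT in 4 of 4 mice with overlapping groups (-1.27 ± 0.25). Hmcn2, the matrix protein hemicentin 2, averaged 89.6 ± 61.04 CPM in BAT FAPs and 125 ± 84.4 CPM in control FAPs (-0.50 ± 0.09). The proprotein convertase Pcsk6 (-0.57 ± 0.11), the carboxypeptidase-like Cpxm2 (-0.53 ± 0.11), the actin-capping tropomodulin Tmod2 (-0.52 ± 0.11), the membrane glycoprotein Gpnmb (-0.53 ± 0.11) and the guidance cue Ntn1 (-0.52 ± 0.11) were also lower with BAT in all 4 mice. Rps19-ps1, a processed pseudogene of a ribosomal protein, was at 1.01 to 2.38 CPM in BAT FAPs and 3.32 to 4.76 CPM in control FAPs without overlap (-1.58 ± 0.33). Its reads cannot be separated with certainty from those of the parent gene, and 0.356% of all genes were lower without overlap.

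**Figure D2:**
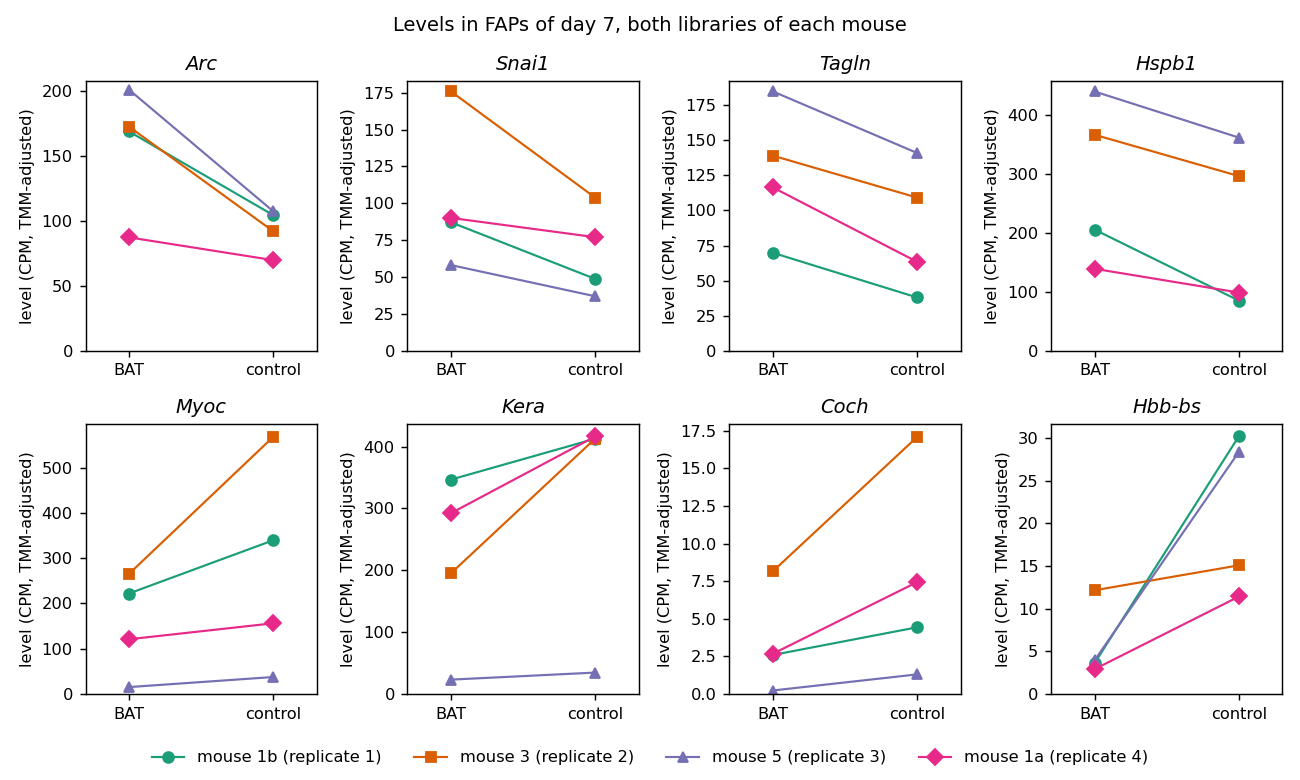
Levels (CPM, y axis, from 0) of 8 genes in FAPs of day 7, with BAT on the left and control on the right of each panel, a line joining both libraries of a mouse. The lines of Arc, Snai1, Tagln and Hspb1 run down from BAT to control in all 4 mice, those of Myoc, Kera, Coch and Hbb-bs run up, and for Hbb-bs 2 of the 4 lines span more than the mice do within either group.

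Tagln, Acta2, Cnn1 and Myl9, contractile genes of myofibroblasts and smooth muscle, were higher with BAT in all 4 mice. Tagln (chr9:45929619-45936058, minus strand), an actin-binding protein of smooth muscle, had 69.8, 139, 185 and 116 CPM in BAT FAPs, against 37.95, 109, 141 and 63.4 CPM in control FAPs. The groups overlapped, yet each mouse was higher with BAT, with a change of 0.62 ± 0.12 (DESeq2 adjusted p = 0.00454). Acta2 (chr19:34241090-34255590, minus strand), smooth muscle actin, had 125, 207, 290.2 and 143 CPM in BAT FAPs, against 48.6, 172, 216 and 87.3 CPM in control FAPs. Its pattern over mice matched that of Tagln, with a change of 0.69 ± 0.16 (DESeq2 adjusted p = 0.0125). Cnn1, the calponin of smooth muscle, had 13.2, 18.1, 27.99 and 18.6 CPM in BAT FAPs, against 1.42, 11.9, 26.9 and 3.25 CPM in control FAPs. As a ratio, replicate 3 showed next to no difference and replicate 1 the widest, for a change of 1.46 ± 0.46. The myosin light chain Myl9 was at 103 ± 16.3 CPM in BAT FAPs and 80.05 ± 19.9 CPM in control FAPs (0.38 ± 0.09).

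Of the 24 genes in the list for the TGF-beta response and myofibroblasts, all tested, 16 were fitted above 0 (66.7%, against 48.4% of all genes). At an unadjusted p under 0.05 there were 6 higher and 1 lower, against 2.61% and 2.28% of all genes. The median was 0.09, against -0.00698 over all genes. The list for pericytes and smooth muscle shares Acta2, Tagln and Cnn1 with it. There 11 of 15 tested members were above 0 with a median of 0.19, and its summed level was 943, 1281, 1557 and 959 CPM in BAT FAPs, against 718, 1345, 1284 and 760.4 CPM in control FAPs, higher with BAT in 3 of 4 mice. Pericyte genes did not run one way: the potassium channel Kcnj8 was fitted at 0.58 ± 0.20 and the receptor Notch3 at -0.57 ± 0.21. In bulk libraries fewer cells of a type and less RNA per cell cannot be told apart. The part of pericytes or smooth muscle cells in the contractile genes was not tested.

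The CArG box, the site bound by serum response factor at contractile genes, was searched on both strands of the RefSeq promoter windows (250 bases before to 50 after the start, GRCm38.p6). It was found in 1 of the 16 members of the myofibroblast list with a window, Myl9, and in 1.57% of the tested genes with a window. The window of Myl9, chr2:156775214-156775513 on the plus strand, is shown because that gene was higher with BAT in every mouse. Capitals mark the box.
Myl9: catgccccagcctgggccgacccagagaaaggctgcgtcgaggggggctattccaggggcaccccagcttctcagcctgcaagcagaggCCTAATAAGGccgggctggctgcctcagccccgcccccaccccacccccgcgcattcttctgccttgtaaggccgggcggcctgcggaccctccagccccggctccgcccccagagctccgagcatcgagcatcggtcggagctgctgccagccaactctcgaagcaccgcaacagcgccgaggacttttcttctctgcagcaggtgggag
For the other members no match says only that the letters are not in this window.

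Heat shock genes, which encode chaperones that keep proteins folded under stress, were fitted above 0 for 15 of 17 members. Hspb1 (chr5:135887919-135889563, plus strand), a small heat shock protein, had 205, 366, 439 and 139 CPM in BAT FAPs, against 84.8, 296, 361 and 98.5 CPM in control FAPs. All 4 mice were higher with BAT and the groups overlapped, with a change of 0.59 ± 0.16 (DESeq2 adjusted p = 0.0495). Reads may be shared with the pseudogene Hsp25-ps1, which DESeq2 called too. Bag3, a co-chaperone of Hsp70, had 695, 1550.3, 899 and 464 CPM in BAT FAPs, against 458, 1005, 735 and 397 CPM in control FAPs, again higher with BAT in each mouse (0.44 ± 0.11). The mitochondrial chaperonin Hspd1 was at 272 ± 114 CPM in BAT FAPs and 207 ± 86.6 CPM in control FAPs (0.40 ± 0.10) and Hsph1, a nucleotide exchange factor of Hsp70, was fitted at 0.40 ± 0.13. Of the 17 genes in the list 5 had an unadjusted p under 0.05, all higher, where 2.61% of all genes did so. The median of the list was 0.13.

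The promoters of these genes carried the inverted repeat GAANNTTC, the core of the element bound by heat shock factor, in 10 of the 13 members with a window, against 7.17% of the tested genes with a window. Each motif was searched on both strands, which are the same for this palindrome. The windows of Hspb1 (chr5:135887669-135887968, plus strand) and Hspd1 (chr1:55087883-55088182, minus strand) are shown, since both genes were higher with BAT in 4 of 4 mice. Capitals mark the repeats, 2 in Hspb1 and 1 in Hspd1.
Hspb1: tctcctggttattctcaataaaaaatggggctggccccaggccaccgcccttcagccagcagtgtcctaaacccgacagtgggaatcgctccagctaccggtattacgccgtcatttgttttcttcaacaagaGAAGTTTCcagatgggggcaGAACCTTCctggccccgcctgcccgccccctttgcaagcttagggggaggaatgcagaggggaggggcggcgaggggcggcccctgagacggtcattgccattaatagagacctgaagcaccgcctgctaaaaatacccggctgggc
Hspd1: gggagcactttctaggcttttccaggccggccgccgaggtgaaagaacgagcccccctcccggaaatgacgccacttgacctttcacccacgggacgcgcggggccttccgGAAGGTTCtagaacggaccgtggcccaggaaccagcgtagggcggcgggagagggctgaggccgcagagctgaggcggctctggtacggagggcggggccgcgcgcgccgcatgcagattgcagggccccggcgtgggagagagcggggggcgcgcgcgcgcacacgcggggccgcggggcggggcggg
Hspe1 lies head to head with Hspd1, so that their windows overlap and the repeat counted for both is the same. A match is a description of the sequence, not of binding. The list was picked as heat shock genes, so its share with the repeat describes the list and is no result about BAT.

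Chaperones of the endoplasmic reticulum leaned the same way. In the list for the unfolded protein response 19 of 23 members were above 0 with a median of 0.12. At an unadjusted p under 0.05 there were 3, all higher, against 2.61% of all genes. Hspa5, the main Hsp70 of that compartment, averaged 3015 ± 485 CPM in BAT FAPs and 2566 ± 783 CPM in control FAPs (0.27 ± 0.12), and the disulfide isomerase Pdia4 was fitted at 0.26 ± 0.09, both higher in 4 of 4 mice.

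Immediate-early genes, which respond quickly to a stimulus, had 21 of 29 tested members above 0 and a median of 0.18. Besides Arc, Fosb, a subunit of the AP-1 factor, had 1010.0, 1406, 1713 and 1065 CPM in BAT FAPs, against 592, 1196, 1397 and 816 CPM in control FAPs. It was higher with BAT in all 4 mice (0.42 ± 0.11). Csrnp1 was fitted at 0.43 ± 0.16 and higher in 3 of 4 mice, whereas Jund, another AP-1 subunit, was lower with BAT in 4 of 4 (-0.30 ± 0.11).

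Cell cycle genes leaned higher with BAT. All 40 members were tested, 38 were fitted above 0 and the median was 0.24, and 9 had an unadjusted p under 0.05, all higher, where 2.61% of all genes did so. Top2a, the topoisomerase of dividing cells, had 27.7, 42.99, 85.8 and 20.9 CPM in BAT FAPs, against 20.7, 33.2, 77.4 and 14.4 CPM in control FAPs. Each mouse was higher with BAT, but replicate 3 stood far above the other mice in both groups, and the change was 0.37 ± 0.10. The origin licensing factor Cdc6 (0.63 ± 0.20), the cyclin Ccne2 (0.50 ± 0.16) and the checkpoint kinase Bub1b (0.41 ± 0.14) were higher in 4 of 4 mice as well. The summed level of the list was 663, 782, 1318 and 549 CPM in BAT FAPs, against 494, 695, 1247 and 479 CPM in control FAPs, so that all pairs had more with BAT. Members of a list are measured in the same libraries and are not independent, and the list carries no test.

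Inflammatory cytokines and targets of NF-kB were above 0 in 30 of 36 tested entries (Ccl19 stands under 2 identifiers), with a median of 0.19. At an unadjusted p under 0.05 there were 8 entries, all higher, against 2.61% of all genes. Csf1, the growth factor of macrophages, had 276, 540.2, 161 and 217 CPM in BAT FAPs, against 205, 476, 133 and 129 CPM in control FAPs, with more in BAT FAPs of each mouse (0.41 ± 0.11). Ptgs2, the inducible cyclooxygenase, averaged 434 ± 191 CPM in BAT FAPs and 361 ± 169 CPM in control FAPs (0.28 ± 0.09). The adhesion molecule Vcam1 (0.27 ± 0.09) and Tnfaip3, a deubiquitinase that restrains NF-kB (0.33 ± 0.12), were higher in 4 of 4 mice. Complement genes and acute phase genes had 12 of 23 tested members above 0, and interferon response genes 20 of 41, with medians of 0.01 and -0.02. Among them the complement protease Masp1 was fitted at 0.71 ± 0.30, the complement protease-like C1rl at -0.33 ± 0.14 and the antiviral synthetase Oas2 at -0.45 ± 0.16.

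Genes that define FAPs leaned lower with BAT. Of the 28 in the identity list, all tested, 6 were fitted above 0, the median was -0.15, and 7 had an unadjusted p under 0.05, all lower, where 2.28% of all genes did so. Dpp4 (chr2:62330073-62412231, minus strand), a surface peptidase of an interstitial progenitor subset, had 62.7, 29.7, 6.296 and 21.1 CPM in BAT FAPs, against 116, 56.3, 7.07 and 22.6 CPM in control FAPs. All mice were lower with BAT, by a wide margin in replicates 1 and 2 and barely in replicates 3 and 4, for a change of -0.55 ± 0.16. Cd55, a complement regulator found on the same subset, was at 67.7 ± 34.7 CPM in BAT FAPs and 90.2 ± 52.6 CPM in control FAPs (-0.38 ± 0.12). Gsn, the actin-severing gelsolin and one of the most abundant transcripts, averaged 8889.8 ± 5152 CPM in BAT FAPs and 11862 ± 7578 CPM in control FAPs, lower in 4 of 4 mice (-0.38 ± 0.12). Igfbp6 (-0.47 ± 0.15), Dcn, the proteoglycan decorin (-0.28 ± 0.12), and Ly6a (-0.30 ± 0.12) were lower in 3 of 4 mice, and Pdgfra differed by less than the spread between libraries. Ly6a protein was part of the sort gate.

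Matrix genes split. Collagens had 7 of 18 members above 0 with a median of -0.05, and Col5a3 (-0.38 ± 0.09) and Col6a3 (-0.24 ± 0.10) were lower with BAT in 4 of 4 mice. Matrix glycoproteins and crosslinking enzymes had 21 of 29 above 0 with a median of 0.04. Tnc, the tenascin deposited in injured muscle, had 1293, 2291, 1297 and 1404 CPM in BAT FAPs, against 436, 2216, 1293 and 836 CPM in control FAPs. Replicates 2 and 3 were nearly level between the groups, replicates 1 and 4 were not, and the change was 0.59 ± 0.23. The membrane metalloproteinase Mmp14 (-0.29 ± 0.10) and the protease inhibitor Serpine2 (-0.31 ± 0.11) were lower in 4 of 4 mice.

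Genes of tendon cells were lower for the most part. Of the 14 members of the tenocyte list 3 were fitted above 0, with a median of -0.32. At an unadjusted p under 0.05 there were 4 lower and 1 higher, against 2.28% and 2.61% of all genes. The higher one was Tnc, which is also in this list and was higher with BAT in 4 of 4 mice (0.59 ± 0.23). Kera (chr10:97606879-97613692, plus strand), the corneal and tendon proteoglycan keratocan, had 347, 195, 23.1 and 292 CPM in BAT FAPs, against 413, 413, 34.5 and 417 CPM in control FAPs. All mice were lower with BAT, and replicate 3 was far below the rest in both groups (-0.61 ± 0.13, DESeq2 adjusted p = 0.0148). Tnmd, the tendon membrane protein tenomodulin, averaged 113 ± 77.3 CPM in BAT FAPs and 162 ± 120.0 CPM in control FAPs (-0.57 ± 0.14, DESeq2 adjusted p = 0.0494). Thbs4, a thrombospondin of tendon and muscle matrix, was lower in 4 of 4 mice (-0.38 ± 0.11) and Chad, a cartilage matrix protein, in 3 of 4 (-0.51 ± 0.19). The list's summed level was 6475, 8463, 2974 and 6298 CPM in BAT FAPs, against 5480.0, 11960.0, 3430.0 and 6562 CPM in control FAPs, higher with BAT in replicate 1 and lower in the others.

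Lipid and sterol synthesis had 17 of 27 members above 0 and a median of 0.17. At an unadjusted p under 0.05 there were 8 members, all higher, against 2.61% of all genes. Hmgcs1, which makes the precursor of mevalonate, had 63.4, 101, 145 and 51.7 CPM in BAT FAPs, against 48.3, 92.6, 86.7 and 41.1 CPM in control FAPs, higher with BAT in 4 of 4 mice and most so in replicate 3 (0.40 ± 0.11). Acly, which supplies cytosolic acetyl-CoA, was fitted at 0.37 ± 0.11.

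Genes of adipogenesis and lipid storage had 20 of 30 tested members above 0 (36 listed) with a median of 0.11. Gata2, which restrains adipogenesis, had 3.44, 5.96, 4.76 and 3.503 CPM in BAT FAPs, against 0.752, 3.87, 2.87 and 1.83 CPM in control FAPs, higher with BAT in every mouse (1.06 ± 0.29). The hormone-sensitive lipase Lipe (0.41 ± 0.17) and the acyl-CoA synthetase Acsl1 (0.38 ± 0.17) were also higher in 4 of 4. Pparg, the master regulator of adipocytes, had 5.601, 6.63, 0.634 and 3.98 CPM in BAT FAPs, against 2.49, 2.68, 1.701 and 3.94 CPM in control FAPs, higher with BAT in 3 of 4 mice. Cebpa, which acts with Pparg in adipocyte differentiation, had 2.16, 3.55, 2.13 and 3.304 CPM in BAT FAPs, against 4.16, 4.13, 2.37 and 3.78 CPM in control FAPs, lower with BAT in 4 of 4 mice with overlapping groups (-0.38 ± 0.24). The glycerol phosphate dehydrogenase Gpd1 had 2.72, 1.29, 0.362 and 0.557 CPM in BAT FAPs, against 2.26, 0.929, 0.358 and 8.49 CPM in control FAPs, highest in the control of replicate 4 and slightly higher with BAT in the other 3 mice (-0.74 ± 0.72). Adipoq, the adipokine of mature fat cells, was at 0.408 to 2.93 CPM in BAT FAPs and 0.112 to 2.85 CPM in control FAPs, and the lipid droplet coat protein Plin1 at most 0.467 CPM.

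Ucp1 and Cidea, which define brown adipocytes, were at or near 0 in the FAPs of grafted muscle. Ucp1 (chr8:83290352-83298452, plus strand) had 0.1697, 0, 0.317 and 0 CPM in BAT FAPs, against 0.158, 0.0743, 0.358 and 11.7 CPM in control FAPs. The single library with a clear level was the control of replicate 4, and the BAT library of the same mouse had none. Cidea, a lipid droplet protein abundant in brown fat, had 0.0849, 0, 0.0453 and 0 CPM in BAT FAPs, against 0.0396, 0.223, 0 and 5.49 CPM in control FAPs, and Cpt1b, a mitochondrial fatty acid importer, had 0.127, 0.975, 0.7700 and 0.557 CPM in BAT FAPs, against 0, 0, 0 and 3.78 CPM in control FAPs. Both peaked in that control library as well, and 10 of the 29 brown and beige genes had their highest level there. The BAT library of replicate 2 was highest for 7, the control of replicate 1 for 6 and the BAT library of replicate 3 for 4. The 10 include Kcnk3 at 1 count, Otop1 at 12 counts, and Prdm16 at 7.38 CPM against 7.13 CPM in the BAT library of replicate 2. The same share over all genes is not given here. Plin1 and Adipoq in the control library of replicate 4 were at 0.124 and 2.85 CPM. Of the 29 genes 16 were abundant enough to test, 10 of them above 0 with a median of 0.08. Pdk4, a kinase that shuts down glucose oxidation, was fitted at 0.57 ± 0.18 and the beige marker Tmem26 at 0.37 ± 0.16, each higher in 3 of 4 mice. Ebf2, a factor of brown precursors that FAPs also expressed, was at 102 ± 26.5 CPM in BAT FAPs and 105 ± 39.2 CPM in control FAPs.

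**Figure D3:**
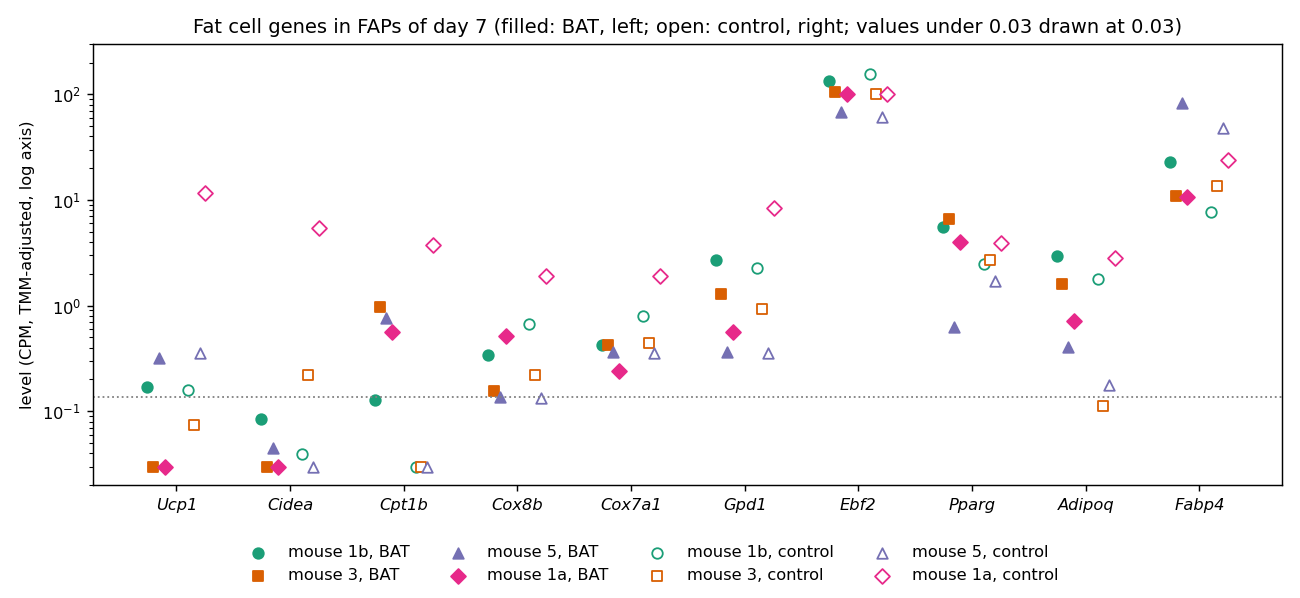
Levels (CPM, log axis) of 10 genes of brown and other fat cells in FAPs of day 7, filled symbols on the left for BAT and open symbols on the right for control, a symbol shape for each mouse, values under 0.03 CPM drawn at 0.03. The dotted line is the level of 3 counts in the shallowest library (0.136 CPM), and Ucp1, Cidea, Cpt1b, Cox8b, Cox7a1 and Gpd1 peak in the control library of mouse 1a (replicate 4), with Ucp1 at 11.7 CPM.

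Secreted factors that act on muscle stem cells were fitted in both directions. Of 49 tested members of the growth factor list 29 were above 0, and the median was 0.07. At an unadjusted p under 0.05 there were 8 higher and 3 lower, against 2.61% and 2.28% of all genes. Besides Wnt5a and Csf1, the stem cell factor Kitl had 34.3, 27.4, 82.3 and 21.2 CPM in BAT FAPs, against 24.3, 25.2, 61.3 and 12.99 CPM in control FAPs, higher with BAT in 4 of 4 mice (0.43 ± 0.11). Fgf2, a mitogen of satellite cells, was at 5.38 ± 1.72 CPM in BAT FAPs and 7.78 ± 3.395 CPM in control FAPs, lower in all 4 (-0.47 ± 0.18). Among proteins that bind insulin-like growth factors, Igfbp5 had 261, 301, 40.4 and 207 CPM in BAT FAPs, against 406, 332, 81.7 and 267 CPM in control FAPs, less with BAT in every mouse (-0.54 ± 0.14), and Igfbp3 was lower in 3 of 4 (-0.44 ± 0.16). The glycoprotein Stc2, an inhibitor of the protease that frees these factors, was fitted at 0.63 ± 0.26.

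Among signalling genes, Aldh1a2, which makes retinoic acid, had 29.1, 37.3, 107 and 39.2 CPM in BAT FAPs, against 27.5, 21.3, 63.8 and 31.2 CPM in control FAPs, higher with BAT in 4 of 4 mice (0.50 ± 0.13), while its list had 6 of 16 members above 0. The BMP list had 8 of 19 above 0, and 3 members at an unadjusted p under 0.05, all lower, where 2.28% of all genes were. They were the secreted antagonists Nbl1 (-0.48 ± 0.18), Chrdl1 (-0.32 ± 0.12) and Chrd (-0.50 ± 0.20). The Wnt and Hedgehog list had 5 of 18 above 0 with a median of -0.16, and its receptor Fzd1 was fitted at -0.30 ± 0.12. The natriuretic peptide receptor Npr1 was at -0.61 ± 0.25, in a list with 3 of 14 members above 0. Glucocorticoid and circadian genes had 8 of 27 above 0, with Tsc22d3, a target of the glucocorticoid receptor, at -0.33 ± 0.12 and the kinase Sgk1, also a target, at 0.30 ± 0.10.

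Genes of energy metabolism differed little. Ribosomal protein genes had 7 of 49 above 0 with a median of only -0.05, and nuclear genes of oxidative phosphorylation 11 of 50 with -0.06. Fatty acid oxidation had 10 of 20 above 0 (0.02), glycolysis 14 of 19 (0.07) and hypoxia 6 of 18 (-0.05). The members of these 5 lists with an unadjusted p under 0.05 were the complex I subunit Ndufa6 (-0.24 ± 0.10), the hexokinase Hk1 (0.34 ± 0.12) and Decr1, a reductase of fatty acid oxidation (-0.21 ± 0.09). For p53 targets the count was 11 of 20, with Mdm2, the ligase that degrades p53, at 0.40 ± 0.12 and the kinase Plk2 at 0.38 ± 0.13. Oxidative stress genes had 12 of 26 above 0, with the cystine transporter Slc7a11 at 0.37 ± 0.16.

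Transcripts of red blood cells were lower with BAT. Hbb-bs (chr7:103826534-103828096, minus strand), a beta globin, had 3.61, 12.2, 3.94 and 2.91 CPM in BAT FAPs, against 30.3, 15.1, 28.4 and 11.4 CPM in control FAPs. Each mouse was lower with BAT, and only the BAT library of replicate 2 reached into the control range, for a change of -2.04 ± 0.41. It passed with edgeR when replicate 2 was left out (adjusted p = 0.0499). Hba-a2 was fitted at -1.59 ± 0.36 (DESeq2 adjusted p = 0.00454), Hba-a1 at -1.87 ± 0.47 and Hbb-bt at -2.33 ± 0.62, and these near-identical globins may share reads. The summed level of the erythroid list was 10.8, 32.6, 11.4 and 8.48 CPM in BAT FAPs, against 86.5, 35.4, 71.1 and 30.1 CPM in control FAPs. Globins are not products of FAPs, and the part of red blood cell RNA in other differences was not tested.

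The ranges of the marker lists of other cell types overlapped between the groups. Of 26 macrophage and monocyte genes 13 were tested, 3 of them above 0 with a median of -0.36, and the summed level of all 26 was 28.3, 31.8, 108 and 23.2 CPM in BAT FAPs, against 29.8, 47.8, 116 and 19.6 CPM in control FAPs. Replicate 3 was highest in both groups. Lyz2, the lysozyme of myeloid cells, was at 6.12 to 20.1 CPM in BAT FAPs and 5.02 to 36.7 CPM in control FAPs, and Cd14, a receptor for bacterial lipopolysaccharide, was fitted at 0.31 ± 0.13. The endothelial list summed to 170 to 200.2 CPM in BAT FAPs and 144 to 267 CPM in control FAPs. The list for muscle differentiation and fibres had 8 of 31 tested members above 0 and summed to 108 to 203 CPM with BAT and 132 to 285 CPM in controls, with the creatine kinase Ckm at -0.44 ± 0.26. The satellite cell list had 6 of 12 tested members above 0 and summed to 1085, 1351, 1792 and 819 CPM in BAT FAPs, against 948, 1384, 1409 and 783 CPM in control FAPs, higher with BAT in 3 of 4 mice. Most of that sum came from Vcam1, Sdc4 and Peg3. Pax7, the factor that defines satellite cells, was at most 0.317 CPM in BAT FAPs and 0.537 CPM in control FAPs, above 0 only in replicate 3. The muscle regulators Myf5 and Myod1 were also highest in replicate 3, at 4.85 and 1.99 CPM with BAT and 4.34 and 3.58 CPM in the control. In the other mice Myf5 was at most 0.156 CPM and Myod1 at most 0.223 CPM. The part of satellite cells in the libraries of replicate 3 was not tested.

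**Figure D4:**
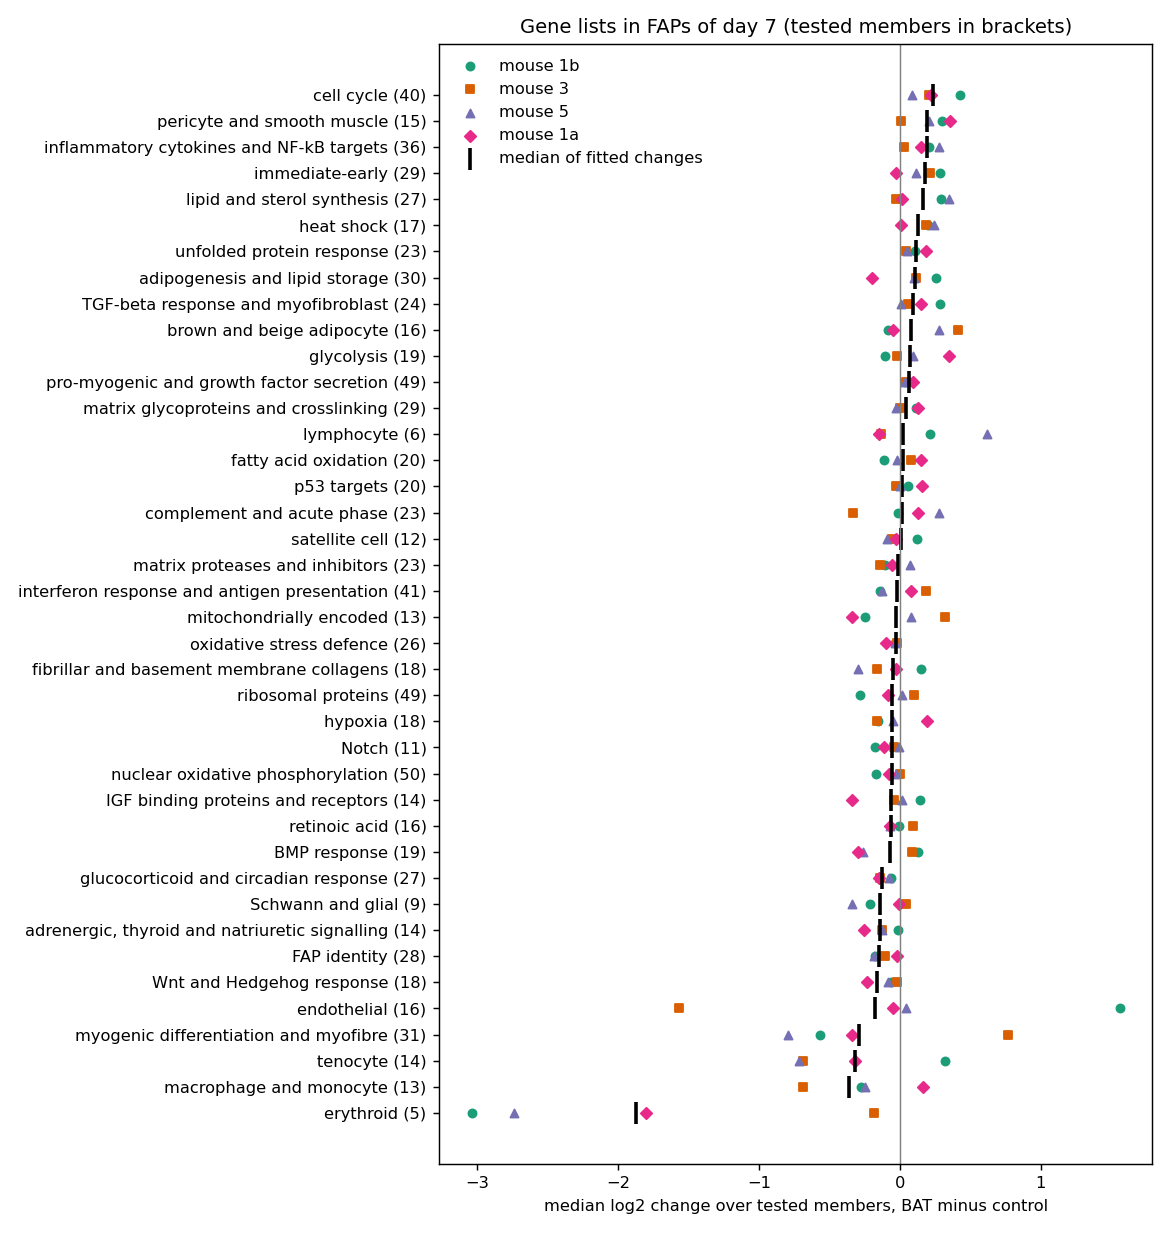
Median log2 change (x axis, BAT minus control) over the tested members of each list with at least 5 (number in brackets), as a black bar for the fitted changes and a symbol for each mouse. Lists run from the highest fitted median at the top, cell cycle (0.24), to the lowest, erythroid (-1.87), and the symbols of the mice straddle 0 for most lists between.

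The graft was also examined in FAPs of day 3, which come from other mice and another deposited table, so that day and table cannot be told apart. Within day 3 edgeR called 3 of 15948 genes (0.0188%). The test of the difference in BAT effect, day 7 minus day 3, gave no call among 17284 genes (0%), while 579 had an unadjusted p under 0.05. DESeq2 called 1, Klhl6. The BAT library of replicate 1 at day 3 stood apart by transcripts of leukocytes. There Klhl6 was at 9.01 CPM and Ptprc at 34.02 CPM (scaled to the library total), against at most 0.218 and 0.7998 CPM in the other 7 libraries of that day, and Lyz2 at 2530.0 CPM against at most 54.6. Without that mouse edgeR called 27 genes within day 3 and again none for the difference, with 874 at an unadjusted p under 0.05, and DESeq2 called 0 differences. Arc was fitted at 0.71 ± 0.12 at day 7 and -0.18 ± 0.22 at day 3, a difference of 0.90 ± 0.28. Snai1 stood at 0.62 ± 0.12 and -0.22 ± 0.15, Sox11 at 0.58 ± 0.11 and 0.45 ± 0.15, and Hmcn2 at -0.50 ± 0.09 and -0.62 ± 0.30, so that Arc and Snai1 differed in sign between the days and Sox11 and Hmcn2 did not. Without that mouse the values of day 3 were -0.37 ± 0.17 for Arc, -0.13 ± 0.13 for Snai1, 0.33 ± 0.13 for Sox11 and -0.23 ± 0.16 for Hmcn2. The globin Hbb-bs was fitted at -2.04 ± 0.41 at day 7 and 1.85 ± 1.34 at day 3, or 0.42 ± 0.62 without that mouse. Across the 15263 genes tested on both days the correlation of the changes was 0.0935, and 0.00721 across 15276 genes without that mouse (genes are not independent replicates).

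Satellite cells of day 7 came from the same 4 mice and muscles. There edgeR called 3 of 16868 genes (0.0178%), and the test of the difference, FAPs minus satellite cells, gave no call among 18033 (0%), while 1205 had an unadjusted p under 0.05. That test gave a mouse a separate block in each cell type. The FAP and satellite cell differences of a mouse were thus treated as independent, although they share the mouse. DESeq2 called 7 differences, among them Arc, which was fitted at 0.71 ± 0.12 in FAPs and -0.28 ± 0.15 in satellite cells. Hbb-bs, also among the 7, was at -2.04 ± 0.41 in FAPs and -0.19 ± 0.15 in satellite cells. Tagln stood at 0.62 ± 0.12 and 0.40 ± 0.19, Myoc at -0.84 ± 0.15 and -0.44 ± 0.29, and Hmcn2 at -0.50 ± 0.09 and -0.62 ± 0.12, with the same sign in both cell types. Across 15226 genes the correlation of the changes was 0.0319.

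**Figure D5:**
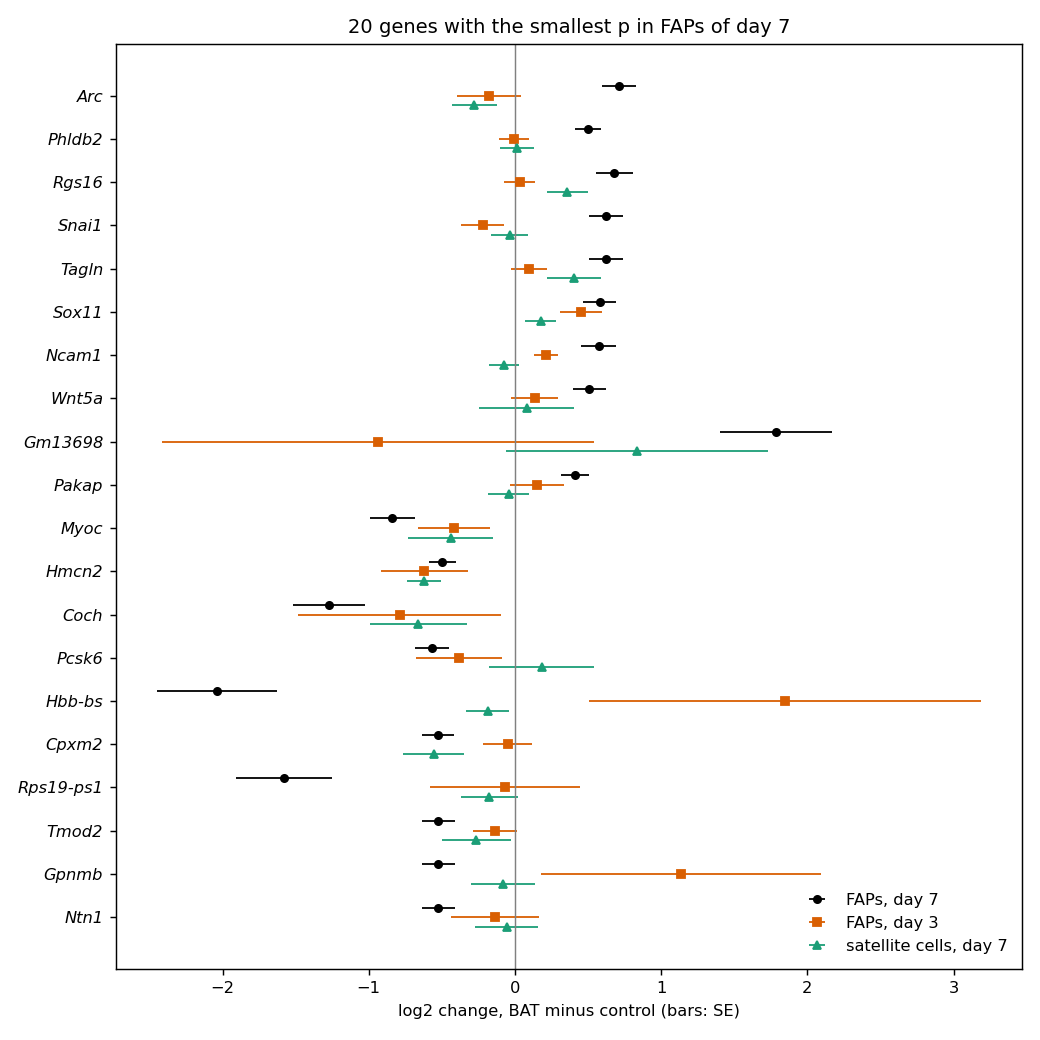
Log2 change, BAT minus control (x axis, bars are SE), of the 10 genes with the smallest p in each direction at a mean of at least 2 CPM in FAPs of day 7 (black circles), with the values of the same genes in FAPs of day 3 (orange squares) and in satellite cells of day 7 (green triangles). Genes were chosen on the black values, and Sox11, Myoc, Hmcn2 and Coch keep the sign in all 3 comparisons while Arc does not.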

How the data were processed

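Per the labels' protocols, cDNA was prepared from small amounts of total RNA of the sorted cells. The authors deposited a table of expected counts per gene for each day, not normalised. DRAGEN and the mm10 build were used, per the submitters' processing notes, and the sources used here give no version, annotation, strand use or handling of reads with several matches. Of 55774 entries 287 repeated another with identical values and were dropped, which left 55487 genes. Rounding the expected counts to whole numbers shifted library totals by at most 0.000343%.

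The test was edgeR 4.0.16 (quasi-likelihood F test, TMM, filterByExpr with a minimum count of 10 and a minimum total of 15, R 4.3.3) in the 8 libraries, with the mouse as a block. The threshold for a call was 0.05 on the p adjusted by Benjamini-Hochberg. The SE is the absolute log2 change over the square root of F. DESeq2 1.42.0 and limma 3.58.1 were alternatives, beside other scalings, filters, joint fits and fits without each replicate. Scripts were tested on simulated data. Pairing comes from the labels, which say that paired samples share a mouse: deviations of paired libraries correlated at 0.400 to 0.692 over genes, each best with its own partner. Libraries of a group differed by more than sampling noise (chi-square over degrees of freedom at least 33.6).

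Genes named are the 10 with the smallest p in each direction at a mean of at least 2 CPM, up to 4 members with the smallest p of each list, and check genes; a few that this rule names are not reported here. Genes called only by another tool, and Cpt1b, Ebf2 and the other fat genes plotted, were chosen after their values were seen. Members and lists were chosen with earlier results of these data known. Replicate 4 carries no number in the labels. At day 3 a pair of FAP libraries without a mouse code was taken as 1 mouse, which is an inference. Coordinates are from GENCODE M21, 1-based, and 55141 of the gene identifiers are in it. With the mouse as a block, the p-values for BAT measure how the difference between BAT and control varies over these 4 mice. The depth of 22.01 M to 30.51 M counts sets the limit for genes at 0.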

Additional observations from a re-analysis of the deposited data

Results flagged for a closer look

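In 34 of 289 groups of 4 libraries 1 library stood apart, by a gap to its nearest neighbour above the critical share of the group's range (Dixon's test). The nominal level of the test gives about 14.4 such groups if they are independent and their values normal. Many genes were chosen by their values, list sums reuse genes, and BAT and control libraries share mice. The excess over 14.4 therefore cannot be weighed. The BAT library of replicate 3 was the one apart in 15 of the 34 groups. The BAT library of replicate 2 and the control library of replicate 4 were apart in 6 each, and the control library of replicate 3 in 4.

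The BAT library of replicate 3 was lowest for Pcsk6 (6.70 CPM), Tmod2 (11.1 CPM), Igfbp6 (143 CPM), Thbs4 (440 CPM), Ckm (2.45 CPM) and Eva1a (3.99 CPM). It was highest for Aldh1a2 (107 CPM), Mdm2 (180 CPM), Lyz2 (20.1 CPM), Ptprc (0.815 CPM), Fabp4 (83.1 CPM), Gk (7.70 CPM) and Tnfrsf9 (2.99 CPM), and for the summed levels of the macrophage and monocyte list (108 CPM) and the neutrophil list (11.3 CPM). The control library of the same mouse was apart for Lyz2 (36.7 CPM) and Ptprc (0.224 CPM), both high, and for Kera (34.5 CPM) and Cited1 (0.940 CPM), both low. Xist in both libraries and the absence of Y-linked transcripts go with this mouse, and the part of sex in its levels was not tested.

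The control library of replicate 4 was highest for Ucp1 (11.7 CPM), Cidea (5.49 CPM), Cpt1b (3.78 CPM), Plin5 (0.527 CPM) and Cidec (0.465 CPM), and for Mmp14 (459 CPM). Ucp1 was at most 0.317 CPM in the BAT FAPs and at most 0.358 CPM in the other control FAPs, so that the muscle labelled as given no BAT held the highest level of this brown fat gene. Neither the part of fat tissue in that library nor an exchange of labels within the pair was tested.

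The BAT library of replicate 2 was highest for the globins Hbb-bs (12.2 CPM), Hba-a1 (12.8 CPM) and Hbb-bt (2.85 CPM), for the summed erythroid list (32.6 CPM), for Tnc (2291 CPM) and for Slc27a2 (0.195 CPM). The BAT library of replicate 1 was highest for Rps19-ps1 (2.38 CPM). The BAT library of replicate 4 had the lowest share of mitochondrially encoded counts (2.23%), and in the control library of replicate 2 the 10 most abundant genes took 20.6% of counts.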

How the results depend on the processing

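The count of 0 genes higher and 0 lower held with edgeR under RLE scaling, total count scaling, a robust fit, a stricter filter on low counts, joint fits with the FAPs of day 3 or the satellite cells of day 7, and an adjusted p under 0.10. Without the replicate block it was also 0 and 0. DESeq2 called 14 higher and 9 lower, limma voom 1 lower, and edgeR with no filter on low counts 83 higher and 62 lower of 30117 genes. Fits without 1 replicate called 0 to 0 genes higher and 0 to 1 lower, the call being Hbb-bs without replicate 2. For the difference between days DESeq2 called 1 gene, no filter 100, and fits without 1 replicate 0 to 1 (Saa3 without replicate 3), and 0 to 0 without each mouse of day 3, a setting added after the data were seen. For the difference between cell types the counts were 7, 183 and 0 to 1 (Ibsp without replicate 1). Without the block both differences stayed at 0. Between mice no filter gave 6868 genes and fits without 1 replicate 2025 to 4815. The cause of these differences in count was not tested. The 96 named genes whose change was followed kept their direction under all settings, of which the stricter filter held 95. Most were chosen by their small p in these same libraries, so a kept direction is no separate support. Of the 96, DESeq2 called 17, the fit with no filter 45 and the fit without replicate 2 called 1. Of 43 list medians 1 moved by more than the spread between mice without the block, and 1 to 3 without 1 replicate. No scaling moved the median of all genes by more than 0.1. Depth limits genes near the level that a count of 0 allows, such as Cidea and Plin1, and 5281 genes had no adjusted p in DESeq2.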
